A study of Mus musculus with 6 samples.

Results

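Integrin and laminin genes, with the nidogens and proteoglycans of basement membranes, were measured in cells sorted for endothelium from mouse embryos at day 9.5. The genes were taken by symbol: integrin alpha and beta chains, laminin alpha, beta and gamma chains, Nid1, Nid2, Hspg2 and Agrn, each with at least 1 probe set annotated to it alone. This gave 38 of the 18193 genes measured, namely 24 integrin genes (16 alpha and 8 beta chains), 10 laminin genes (5 alpha, 3 beta and 2 gamma chains), 2 nidogens and 2 heparan sulfate proteoglycans. Itga11 and Itgad had no such probe set and were not analysed here. The cells were CD31+/CD41-/CD45- cells sorted by flow cytometry from heart tubes, caudal-half tissue and yolk sacs of embryos of mixed background, freshly isolated, with 2 independent biological replicates per tissue and 1 Affymetrix array per replicate. The sources used here do not say how many embryos each sample pooled. CD31 marks endothelium, CD41 platelets and early blood progenitors, and CD45 leukocytes.

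Integrins are cell surface receptors made of an alpha and a beta chain, and the pairing decides whether a cell grips laminin, collagen, fibronectin, vitronectin or a ligand on another cell. Laminins are cross-shaped trimers of an alpha, a beta and a gamma chain that polymerise into the inner sheet of the basement membrane, where nidogens and the proteoglycans perlecan and agrin tie them to the collagen network. Endothelium rests on such a sheet and is known for laminins with the alpha chain encoded by Lama4 or Lama5. In the embryonic heart, endocardium and muscle face each other across a matrix-filled space, and in the yolk sac the vessels lie between mesothelium and visceral endoderm.

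The levels given are the authors' RMA values on a log2 scale, obtained as the natural log of the deposited signal. Should the deposited signal be linear after all, differences would be multiplied by 1.44, with the same p-values. Genes are called at a limma adjusted p (Benjamini-Hochberg over all 18193 genes) under 0.05. Probe sets for bacterial RNAs read 1.33 to 4.03, and this range describes weak signals. Replicates correlated at r = 0.981 to 0.986 over all probe sets. Pecam1, which encodes CD31, read 9.49 to 10.09, Cdh5, the endothelial cadherin gene, 9.97 to 10.88, and Ptprc, which encodes CD45, 2.33 to 2.85. All 15 pan-endothelial genes were above the bacterial controls on every array. Their summed level was 13.37 to 13.51 in heart tube cells, 13.91 to 14.02 in caudal-half cells and 14.31 to 14.33 in yolk sac cells. In heart tube cells 1 of the 15 was called higher and 5 lower than in caudal-half cells (2.86% and 2.65% of all genes). Against yolk sac cells 0 were higher and 10 lower in heart tube cells (5.14% and 6.67%), and 1 higher and 3 lower in caudal-half cells (4.22% and 4.86%). Cdh5 was called lower in heart tube than in yolk sac cells (-0.87 ± 0.16, limma adjusted p = 0.0166). Pecam1 was not called. The gap between the 3' and 5' Gapdh probe sets, a measure of RNA quality, was 1.88 and 1.98 in heart tube cells, 1.67 and 1.58 in caudal-half cells, and 2.04 and 1.81 in yolk sac cells.

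Each tissue differed from the others in named adhesion genes. In heart tube cells Itga4 was high, and the laminin-binding chain genes Itga3 and Itga6, the laminin gene Lama3 and the nidogen gene Nid2 were low. In caudal-half cells Itgb5 and Itgav, whose products pair into a vitronectin receptor, were low. In yolk sac cells Itga8 was far higher than in either embryonic tissue, Lama3 and Nid2 were high, and the laminin gene Lamb1 was low. Itgb1, the beta chain shared by most of these receptors, and Nid1 were not called in any comparison. The calls behind the statements on Itga3, Itgb5 and Itga8 held without any single array. So did those of Itga6, Lama3 and Nid2 between heart tube and yolk sac. The other calls of these genes, and those of Itga4, Itgav and Lamb1, were lost without at least 1 array, as given below.

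Of the 38 genes, 10 were called between heart tube and caudal-half tissue (26.3%, against 5.51% of all genes), 5 of them higher in heart tube cells (2.86% of all genes) and 5 lower (2.65%). Between heart tube and yolk sac 13 were called (34.2%, against 11.8%), 4 higher (5.14%) and 9 lower (6.67%) in heart tube cells. Between caudal-half tissue and yolk sac 9 were called (23.7%, against 9.08%), with Lamb1 higher in caudal-half cells (4.22% of all genes) and 8 genes lower (4.86%). The median difference of the 38 genes was -0.05, -0.24 and -0.13 in these comparisons, beside -0.08, -0.06 and 0.02 over all genes, and the median size without sign was 0.46, 0.58 and 0.43, beside 0.25, 0.30 and 0.27. The 3 comparisons share arrays, so that a tissue apart from both others appears in 2 of them. In all, 17 of the 38 genes were called at least once (16.5% of all genes were), 21 were not called, and 8 of these had means in the bacterial control range in all tissues. Replicates of these genes differed by a median of 0.18 in heart tube cells, 0.18 in caudal-half cells and 0.24 in yolk sac cells.

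**Figure D1:**
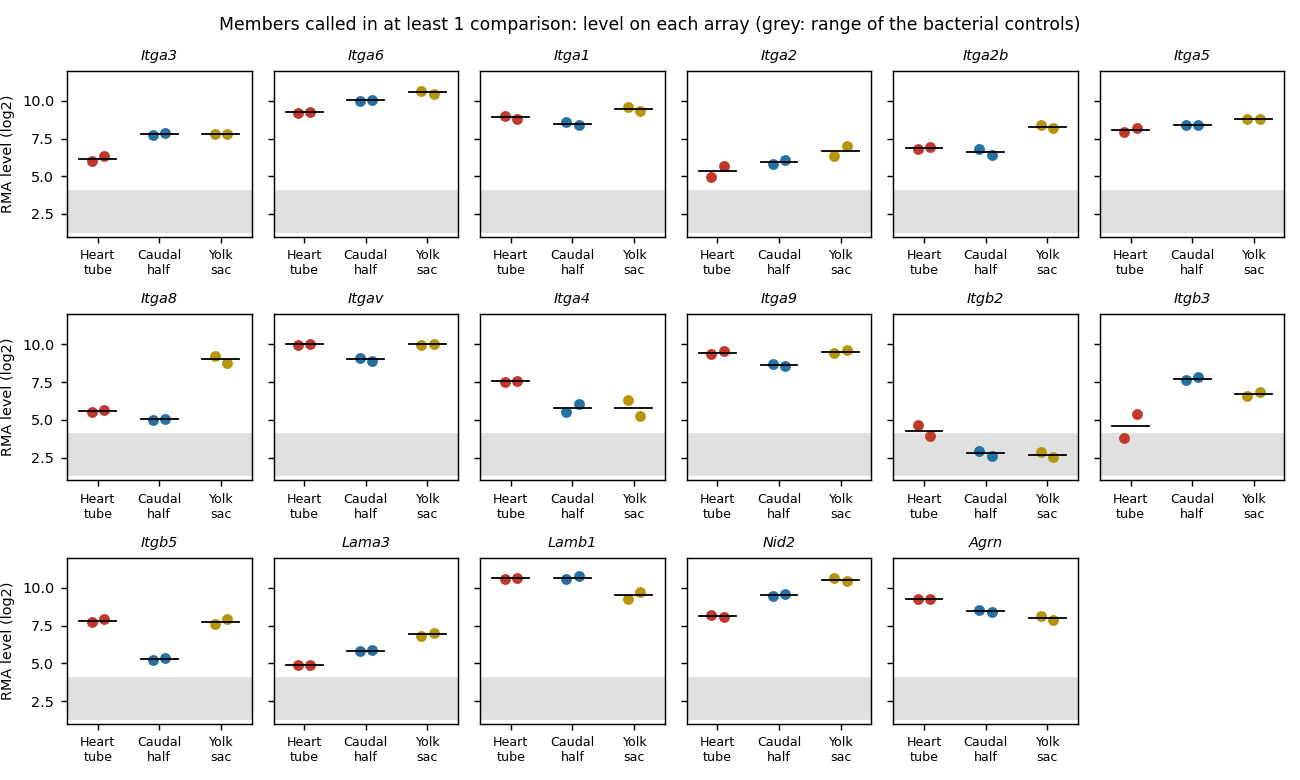
Level (RMA, log2) of the 17 genes called in at least 1 comparison, 1 point per array and a line at the mean of the 2 arrays of a tissue, with the range of the bacterial controls in grey. Itga8 stands at 9.25 and 8.76 in yolk sac cells and below 6 elsewhere, and Itgb5 at 5.25 and 5.33 in caudal-half cells and above 7 elsewhere.

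Promoter sequences are shown to let the upstream letters of genes with unlike patterns be compared. Where genes that set 1 tissue apart from both others had exactly 1 entry in the RefSeq promoter table, the one with the largest difference was taken: Itga4 (high in heart tube cells), Itgb5 (low in caudal-half cells), Itga8 (high in yolk sac cells) and Lamb1 (low in yolk sac cells). None is shown for the 5 genes low in heart tube cells against both others (Itga3, Itga6, Itgb3, Lama3 and Nid2). Each had no entry, several entries, or an entry on 1 chromosome that was left out of this choice. Of the 38 genes, 25 had an entry in that table. Each sequence runs 5′ to 3′ on the gene's strand, from 250 bases before to 50 after the annotated start, in build GRCm38.p6. The positions are chr2:79255176-79255475 (plus strand), chr16:33829415-33829714 (plus strand), chr2:12301895-12302194 (minus strand) and chr12:31265043-31265342 (plus strand). Capitals mark matches on either strand to AGATAA or TGATAA (cores bound by GATA factors), CANNTG (the E-box), CCGGAA (an ETS core), GGGCGG (the GC box) and TATAAA (the TATA box). None of the marked matches overlapped another.
Itga4: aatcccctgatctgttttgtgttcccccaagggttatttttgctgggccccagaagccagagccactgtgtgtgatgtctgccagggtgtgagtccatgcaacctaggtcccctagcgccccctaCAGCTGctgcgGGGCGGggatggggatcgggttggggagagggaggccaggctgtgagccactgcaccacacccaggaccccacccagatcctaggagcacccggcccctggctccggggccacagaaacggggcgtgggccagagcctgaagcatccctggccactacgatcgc
Itgb5: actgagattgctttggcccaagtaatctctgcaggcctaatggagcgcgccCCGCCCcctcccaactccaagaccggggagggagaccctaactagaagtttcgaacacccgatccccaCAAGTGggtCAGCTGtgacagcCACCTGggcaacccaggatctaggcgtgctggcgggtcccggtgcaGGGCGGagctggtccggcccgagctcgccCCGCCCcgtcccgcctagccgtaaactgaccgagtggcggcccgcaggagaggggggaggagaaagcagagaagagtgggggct
Itga8: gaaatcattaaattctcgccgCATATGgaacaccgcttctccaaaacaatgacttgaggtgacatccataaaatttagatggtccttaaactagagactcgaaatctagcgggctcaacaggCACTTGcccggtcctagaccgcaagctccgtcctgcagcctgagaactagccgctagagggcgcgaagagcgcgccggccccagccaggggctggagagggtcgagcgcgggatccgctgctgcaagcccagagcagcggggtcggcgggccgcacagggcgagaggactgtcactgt
Lamb1: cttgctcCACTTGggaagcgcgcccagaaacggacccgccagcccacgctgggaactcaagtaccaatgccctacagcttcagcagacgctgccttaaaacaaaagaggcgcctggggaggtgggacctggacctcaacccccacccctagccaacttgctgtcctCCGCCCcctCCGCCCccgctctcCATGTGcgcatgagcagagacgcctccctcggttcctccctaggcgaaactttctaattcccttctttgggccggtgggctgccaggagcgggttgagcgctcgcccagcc
Itga4 held 1 E-box and 1 GC box, Itgb5 3 of each, Itga8 2 E-boxes, and Lamb1 2 of each. Of all 32851 promoters in the table, 72.3% held the E-box and 35.7% the GC box, so that these matches were common. AGATAA (11.2% of promoters), TGATAA (9.05%), CCGGAA (14.9%) and TATAAA (13.6%) had no match in these windows.

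Among integrin alpha chains that bind laminin, Itga3 read 6.00 and 6.32 in heart tube cells, 7.76 and 7.86 in caudal-half cells, and 7.79 and 7.80 in yolk sac cells. Both heart tube arrays were below all others. The difference was -1.65 ± 0.18 (SE) against caudal-half cells (limma adjusted p = 0.00497) and -1.63 ± 0.18 against yolk sac cells (limma adjusted p = 0.0028). All 3 probe sets of Itga3 were called in both comparisons, and so was the gene whichever array was left out. In bulk samples such as these, fewer cells of a type and less RNA per cell cannot be told apart.

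Itga6, whose product is the main laminin receptor chain of endothelium, read 9.18 and 9.29 in heart tube cells, 10.02 and 10.07 in caudal-half cells, and 10.65 and 10.48 in yolk sac cells. The 3 tissues did not overlap. Heart tube cells were lower than yolk sac cells, with a difference of -1.33 ± 0.16 (limma adjusted p = 0.00437), a call that held without any single array. Against caudal-half cells the difference of -0.81 ± 0.16 was called at a limma adjusted p of 0.0437, which was lost whichever of the 6 arrays was left out (up to 0.214), and neither of the 2 probe sets passed when all probe sets were tested, the second at -0.52. Itga7, the laminin receptor chain of muscle, was in the bacterial control range in all tissues, with means of 3.53, 3.92 and 3.67 in heart tube, caudal-half tissue and yolk sac.

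Of the collagen-binding chains, Itga1 read 9.00 and 8.80 in heart tube cells, 8.61 and 8.37 in caudal-half cells, and 9.58 and 9.30 in yolk sac cells. Its call of -0.95 ± 0.19 for caudal-half tissue minus yolk sac (limma adjusted p = 0.0313) was lost whichever of the 6 arrays was left out (up to 0.136), while both of its probe sets passed, the second at -1.50. Itga2 read 4.95 and 5.69 in heart tube cells, 5.81 and 6.08 in caudal-half cells, and 6.33 and 6.97 in yolk sac cells. Heart tube cells were lower than yolk sac cells, with a difference of -1.33 ± 0.32 (limma adjusted p = 0.0463), and this call was lost whichever array was left out too (up to 0.196). Itga10, a collagen receptor chain of cartilage, stayed in the bacterial control range on average, at 2.92, 2.86 and 3.70 in heart tube, caudal-half tissue and yolk sac.

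Itga8, whose product pairs with that of Itgb1 and is known as the nephronectin receptor of the developing kidney, showed the widest separation. It read 5.51 and 5.67 in heart tube cells, 4.97 and 5.07 in caudal-half cells, and 9.25 and 8.76 in yolk sac cells. Heart tube cells were lower than yolk sac cells, with a difference of -3.42 ± 0.21 (limma adjusted p = 0.000315) and caudal-half cells were lower too, at -3.98 ± 0.21 (0.000399). The second probe set gave -4.15 and -4.17, and no single array ended either call. Heart tube and caudal-half tissue differed by 0.57 ± 0.21 (limma adjusted p = 0.212). Visceral endoderm markers moved with Itga8: the summed level of 12 genes was 10.07 to 10.12 in heart tube cells, 10.25 to 10.29 in caudal-half cells and 14.69 to 14.73 in yolk sac cells. Ttr, a defining gene of that layer, read 4.81 and 4.90 in heart tube cells, 4.46 and 4.50 in caudal-half cells, and 12.31 and 12.53 in yolk sac cells. Of 14 mesenchymal and cushion genes, Lum read 2.92 and 3.07 in heart tube cells, 5.44 and 4.07 in caudal-half cells, and 8.97 and 8.42 in yolk sac cells. The list was mixed, with 6 genes called higher and 4 lower in heart tube than in yolk sac cells (5.14% and 6.67% of all genes). In caudal-half cells 2 were called higher and 6 lower than in yolk sac cells (4.22% and 4.86% of all genes). The summed level of the whole list was 13.36 to 13.46 in heart tube cells, 10.36 to 10.50 in caudal-half cells and 13.26 to 13.32 in yolk sac cells. The part of either cell type in the Itga8 difference was not tested.

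Itgav encodes the alpha chain of the vitronectin receptors. Its level was 9.95 and 10.04 in heart tube cells, 9.11 and 8.92 in caudal-half cells, and 9.98 and 10.04 in yolk sac cells. Both caudal arrays were below all others, by 0.98 ± 0.17 for heart tube minus caudal-half tissue (limma adjusted p = 0.0234) and -0.99 ± 0.17 for caudal-half tissue minus yolk sac (0.0171). Of its 5 probe sets 2 passed in the first comparison and 1 in the second, and the mean of all probe sets passed in neither, with differences of 0.44 and -0.49 (limma adjusted p = 0.148 and 0.085). Each call was also lost whichever of the 4 arrays compared was left out (up to 0.134 and 0.0826).

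Itgb5, a beta chain that pairs with the Itgav product, had the same order with a larger gap. It stood at 7.71 and 7.91 in heart tube cells, 5.25 and 5.33 in caudal-half cells, and 7.60 and 7.93 in yolk sac cells. Heart tube and yolk sac overlapped, and caudal-half cells were below both, at 2.52 ± 0.19 for heart tube minus caudal-half tissue (limma adjusted p = 0.00128) and -2.47 ± 0.19 for caudal-half tissue minus yolk sac (0.00121). All 4 probe sets passed in both comparisons, with differences of 2.52 to 3.56 and -3.53 to -2.47, and both calls held without any single array. The summed level of the 14 mesenchymal genes was likewise lowest in caudal-half cells, as given above, and its part in the Itgb5 and Itgav differences was not tested.

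Itgb3, the other main partner of the Itgav product and, with that of Itga2b, the fibrinogen receptor of platelets, had another order of levels than Itgb5. Its level was 3.81 and 5.41 in heart tube cells, 7.65 and 7.82 in caudal-half cells, and 6.55 and 6.86 in yolk sac cells. The lowest level was that of heart tube cells, with the first array in the bacterial control range and 1.6 below the second. Heart tube cells differed by -3.13 ± 0.48 from caudal-half cells (limma adjusted p = 0.0171) and by -2.10 ± 0.48 from yolk sac cells (0.0384). The first call was lost without either caudal array (up to 0.0903), and the second without the first heart tube array or any caudal or yolk sac array (up to 0.134). Without the first heart tube array the second difference was -1.30. A second, dimmer probe set differed by -0.56 and -0.38 and was not called, and the mean of both differed by -1.85 and -1.24 with the calls kept. Among 8 megakaryocyte and platelet genes, Clec1b, a platelet receptor, was called and was lower in heart tube cells too (6.48 and 6.32, against 9.75 and 9.64 in caudal-half cells and 9.31 and 9.70 in yolk sac cells). The platelet chemokine genes Pf4 and Ppbp were low, at 3.99 to 5.02 and 2.16 to 2.56 over all arrays. The list's summed level was 7.50 to 7.52 in heart tube cells, 9.81 to 9.91 in caudal-half cells and 9.53 to 9.89 in yolk sac cells, with 5, 4 to 5 and 4 genes in the bacterial control range. In caudal-half and yolk sac cells this sum was close to the level of Clec1b alone. Only 1 of the 8 genes was called lower in heart tube cells in each comparison (2.65% and 6.67% of all genes), and 7 were not called. Median differences of the list were -0.12 against caudal-half cells and -0.11 against yolk sac cells.

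Itga2b encodes CD41, against which the cells were sorted, so that its level also reflects the gate. Itga2b read 6.81 and 6.93 in heart tube cells, 6.80 and 6.42 in caudal-half cells, and 8.37 and 8.18 in yolk sac cells. The level was lower in heart tube than in yolk sac cells, with a difference of -1.41 ± 0.20 (limma adjusted p = 0.00687), lost without the first heart tube array (0.053), and lower in caudal-half than in yolk sac cells, with a difference of -1.67 ± 0.20 (0.00522).

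Fibronectin is bound by the product of Itga5, and fibronectin and VCAM1 by that of Itga4. Itga4 read 7.51 and 7.60 in heart tube cells, 5.53 and 6.03 in caudal-half cells, and 6.29 and 5.28 in yolk sac cells. Both heart tube arrays were above all others, while caudal-half tissue and yolk sac overlapped. The level in heart tube cells was higher by 1.77 ± 0.35 than each of them (limma adjusted p = 0.0396 against caudal-half cells and 0.0233 against yolk sac cells). Of 5 probe sets 4 passed in each comparison, with differences up to 2.42 and 2.44. The first call was lost without each heart tube or caudal array in turn (up to 0.193), and the second without the second yolk sac array or either heart tube array (up to 0.114). Of 17 cardiomyocyte markers 7 and 9 were called higher in heart tube cells in these comparisons, beside 2.86% and 5.14% of all genes. The summed level of the 17 was 11.72 to 11.74 in heart tube cells, 9.75 to 9.83 in caudal-half cells and 8.92 to 8.98 in yolk sac cells. The part of these markers in the Itga4 difference was not tested.

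The Itga5 level was 7.95 and 8.20 in heart tube cells, 8.39 and 8.40 in caudal-half cells, and 8.80 and 8.77 in yolk sac cells. Its call of -0.71 ± 0.17 for heart tube minus yolk sac (limma adjusted p = 0.0438) was lost whichever array was left out (up to 0.215), none of its 4 probe sets passed among all probe sets, they ranged from -1.17 to 0.60, and their mean was -0.41. Itga9, a chain that binds tenascin C and is needed in lymphatic valves, read 9.37 and 9.54 in heart tube cells, 8.70 and 8.59 in caudal-half cells, and 9.42 and 9.61 in yolk sac cells. Caudal-half cells were lowest, at 0.81 ± 0.17 for heart tube minus caudal-half tissue (limma adjusted p = 0.0495) and -0.87 ± 0.17 for caudal-half tissue minus yolk sac (0.0289). Both calls were lost whichever array was left out (up to 0.222 and 0.121), and the mean of its 3 probe sets passed in neither.

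Itgb1, the partner of most alpha chains above, read 10.57 and 10.78 in heart tube cells, 10.32 and 10.73 in caudal-half cells, and 10.91 and 10.85 in yolk sac cells. It was not called, with differences of 0.16, -0.20 and -0.36 (SE 0.20 each), although 1 of its dimmer probe sets was called higher in heart tube than in yolk sac cells (1.59).

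The leukocyte integrins were close to background. Itgal, Itgam and Itgax, alpha chains of leukocytes, averaged 1.99 to 3.95 and did not exceed the bacterial controls in any tissue mean. Itgb2, their beta chain, read 4.66 and 3.90 in heart tube cells, 2.96 and 2.60 in caudal-half cells, and 2.83 and 2.53 in yolk sac cells. It was called higher in heart tube cells by 1.50 ± 0.29 and 1.60 ± 0.29 (limma adjusted p = 0.0377 against caudal-half cells and 0.018 against yolk sac cells), although 1 of the 2 heart tube arrays and all others were in the bacterial control range. The first call was lost without the first heart tube array or any caudal or yolk sac array (up to 0.151), and the second without the first heart tube array or either yolk sac array (up to 0.0783). Of 12 leukocyte markers, none was called higher in heart tube cells than in caudal-half or yolk sac cells (2.86% and 5.14% of all genes were). Coro1a was called lower in heart tube than in caudal-half cells (2.65% of all genes were). In caudal-half cells 2 of the 12 were called higher than in yolk sac cells (4.22% of all genes were). On the heart tube arrays 7 of the 12 were in the bacterial control range, on the caudal arrays 6, and on the yolk sac arrays 6 to 7. Their summed level was 9.44 to 9.61 in heart tube cells, 9.82 to 10.45 in caudal-half cells and 9.01 to 9.17 in yolk sac cells. Itgb4, Itgb6 and Itgb8, of epithelia and other cells, were within that range in all tissues, and Itgb7, of lymphocytes, averaged 4.57 in heart tube cells, 4.62 in caudal-half cells and 4.53 in yolk sac cells.

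**Figure D2:**
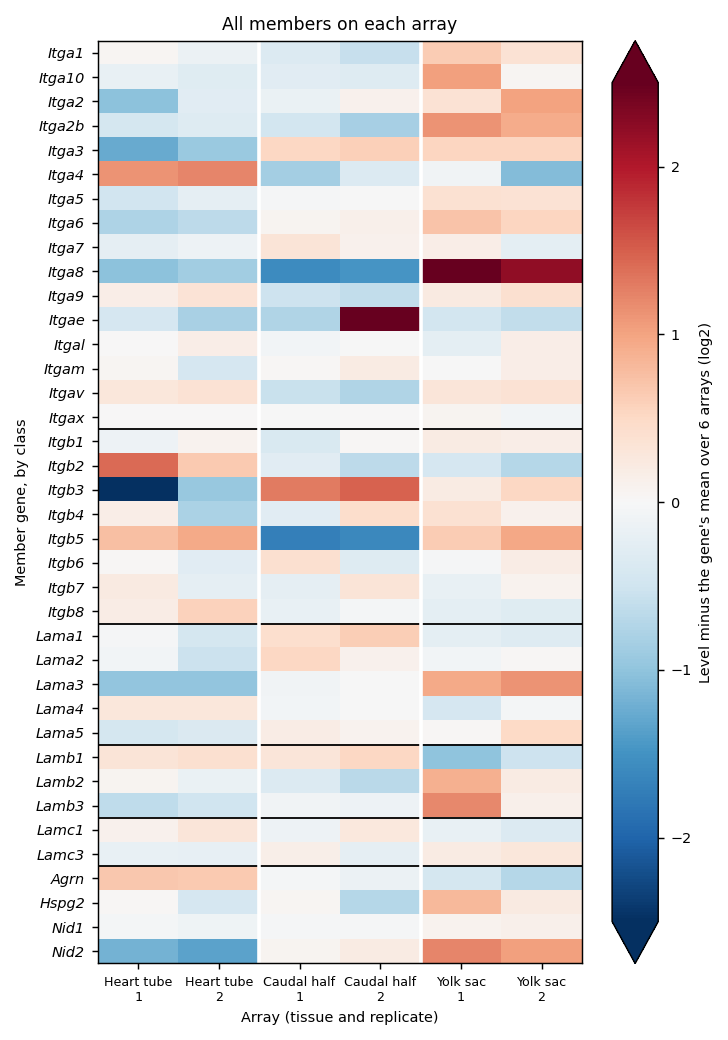
Level of all 38 genes on each of the 6 arrays, minus the gene's mean over the arrays (log2), with lines between classes of genes. Itga8 is highest in both yolk sac arrays and Itgb5 lowest in both caudal arrays, while Itgae stands out on the second caudal array alone (6.20).

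Of the laminin genes, 1 of 10 was called between heart tube and caudal-half tissue and 2 of 10 in each of the other comparisons, beside 5.51%, 11.8% and 9.08% of all genes. Of the alpha chains, Lama3, a chain of epithelial basement membranes, separated all tissues. It read 4.91 and 4.90 in heart tube cells, 5.80 and 5.87 in caudal-half cells, and 6.84 and 7.02 in yolk sac cells. Heart tube cells were lower than yolk sac cells, with a difference of -2.02 ± 0.16 (limma adjusted p = 0.000859), which held without any single array. Heart tube cells were also lower than caudal-half cells, with a difference of -0.94 ± 0.16 (0.026, lost without each heart tube or caudal array in turn, up to 0.138), and caudal-half cells were lower than yolk sac cells, with a difference of -1.09 ± 0.16 (0.0117, lost without either caudal array or the second yolk sac array, up to 0.0683). A second probe set differed by -0.31, -0.67 and -0.36 and was not called, and the mean of both differed by -0.62, -1.35 and -0.73, the first of these without a call. Epithelial markers had the same order, with a summed level of 12 genes of 8.94 to 9.11 in heart tube cells, 10.15 to 10.23 in caudal-half cells and 11.59 to 11.67 in yolk sac cells. Of these genes 6 were called lower in heart tube cells than in caudal-half cells and 8 lower than in yolk sac cells (2.65% and 6.67% of all genes). In caudal-half cells 4 were called lower than in yolk sac cells (4.86% of all genes). The part of the epithelial markers in the Lama3, Itga3 and Itga6 differences was not tested.

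Among the endothelial laminin chains, Lama4 averaged 9.52 ± 0.01 (SD, n = 2 here and below) in heart tube cells, 9.20 ± 0.04 in caudal-half cells and 9.00 ± 0.27 in yolk sac cells, and Lama5 6.19 ± 0.06 in heart tube cells, 6.72 ± 0.08 in caudal-half cells and 6.85 ± 0.32 in yolk sac cells. Neither was called in any comparison. Lama1, the chain of the earliest embryonic basement membranes, averaged 5.93 ± 0.28 in heart tube cells, 6.68 ± 0.14 in caudal-half cells and 5.89 ± 0.05 in yolk sac cells. Its caudal arrays were above all others, but the differences of -0.75 ± 0.20 and 0.79 ± 0.20 missed the threshold (limma adjusted p = 0.094 for heart tube minus caudal-half tissue and 0.06 for caudal-half tissue minus yolk sac). Lama2, of muscle and nerve, averaged 5.32 in heart tube cells, 5.94 in caudal-half cells and 5.61 in yolk sac cells and was not called.

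Lamb1, the beta chain of most embryonic laminins, was low in yolk sac cells. Its values were 10.59 and 10.67 in heart tube cells, 10.58 and 10.79 in caudal-half cells, and 9.26 and 9.75 in yolk sac cells. Above yolk sac cells, heart tube cells were higher by 1.12 ± 0.21 (limma adjusted p = 0.021) and caudal-half cells by 1.18 ± 0.21 (0.0225), and the embryonic tissues overlapped. All 4 probe sets were on the same side in both comparisons, of which 1 and 2 passed. The first call was lost without either heart tube array or the first yolk sac array (up to 0.109), and the second without either caudal array or the first yolk sac array (up to 0.106). Lamb2 ran the other way, with means of 6.23 ± 0.16 in heart tube cells, 5.77 ± 0.23 in caudal-half cells and 6.83 ± 0.48 in yolk sac cells, and was not called (limma adjusted p = 0.0619 for caudal-half tissue minus yolk sac). Lamb3, an epithelial chain, averaged 3.56 in heart tube cells, 4.02 in caudal-half cells and 4.78 in yolk sac cells, with its yolk sac arrays 1.09 apart, and was not called. Lamc1, the gamma chain of most laminins, averaged 10.29 ± 0.13, 10.15 ± 0.28 and 9.83 ± 0.10 in heart tube, caudal-half tissue and yolk sac, and Lamc3 3.84, 3.99 and 4.27, again without a call.

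Of the nidogens, which link laminin to collagen IV, Nid2 was called and Nid1 was not. Nid1 read 11.21 and 11.16 in heart tube cells, 11.24 on both caudal arrays, and 11.36 and 11.39 in yolk sac cells. Nid2 read 8.23 and 8.08 in heart tube cells, 9.49 and 9.61 in caudal-half cells, and 10.64 and 10.44 in yolk sac cells. The 3 tissues did not overlap, with -1.40 ± 0.17 for heart tube minus caudal-half tissue (limma adjusted p = 0.00759), -2.38 ± 0.17 for heart tube minus yolk sac (0.000595) and -0.99 ± 0.17 for caudal-half tissue minus yolk sac (0.0199). The largest of these held without any single array. The first was lost without the second heart tube array (0.0622), and the last without either caudal array or the first yolk sac array (up to 0.1). The summed level of the pan-endothelial genes had the same order, as given above, and so had Itga6. The part of the pan-endothelial genes in the Nid2 and Itga6 differences was not tested.

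Agrn encodes agrin, a proteoglycan. Its values were 9.25 and 9.24 in heart tube cells, 8.53 and 8.43 in caudal-half cells, and 8.15 and 7.87 in yolk sac cells. Compared with yolk sac cells, heart tube cells were higher by 1.24 ± 0.17 (limma adjusted p = 0.0069, lost without the first heart tube array at 0.0511). Against caudal-half cells, 0.77 ± 0.17 missed the threshold (0.0596) but passed it with averaged probe sets, without dim genes and with an intensity trend. A second Agrn probe set averaged 7.23 in heart tube cells, 6.16 in caudal-half cells and 6.59 in yolk sac cells and was not called, and its difference for caudal-half tissue minus yolk sac (-0.43) had the opposite sign to that of the first (0.47). Hspg2, encoding perlecan, averaged 9.07 ± 0.31 in heart tube cells, 8.93 ± 0.55 in caudal-half cells and 9.79 ± 0.42 in yolk sac cells and was not called.

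**Figure D3:**
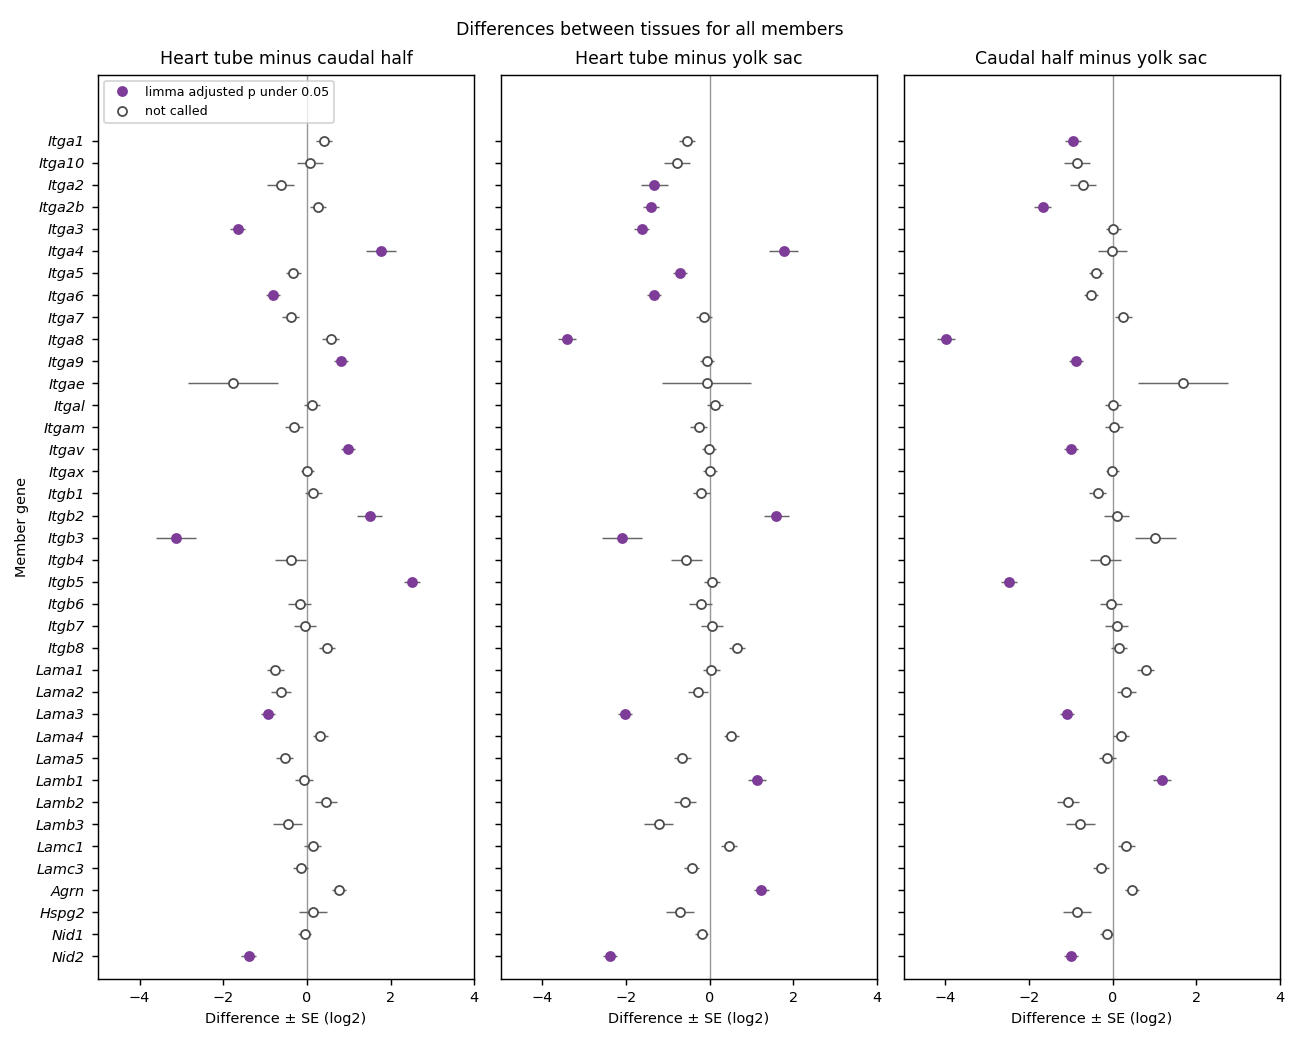
Difference between tissues (log2) with its standard error for all 38 genes, filled where the limma adjusted p over all genes was under 0.05. Itga8 lies farthest from 0, at -3.42 and -3.98 against yolk sac cells in the middle and right panels.

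Of the 38 genes, 23 had several probe sets (81 in all). Among 24 called differences of such genes, 8 were called by every probe set of the gene when all named probe sets were tested together, and no gene had probe sets called in opposite directions. The 8 were both differences of Itga3, Itga8 and Itgb5, that of Itga6 for heart tube minus yolk sac and that of Itga1.

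**Figure D4:**
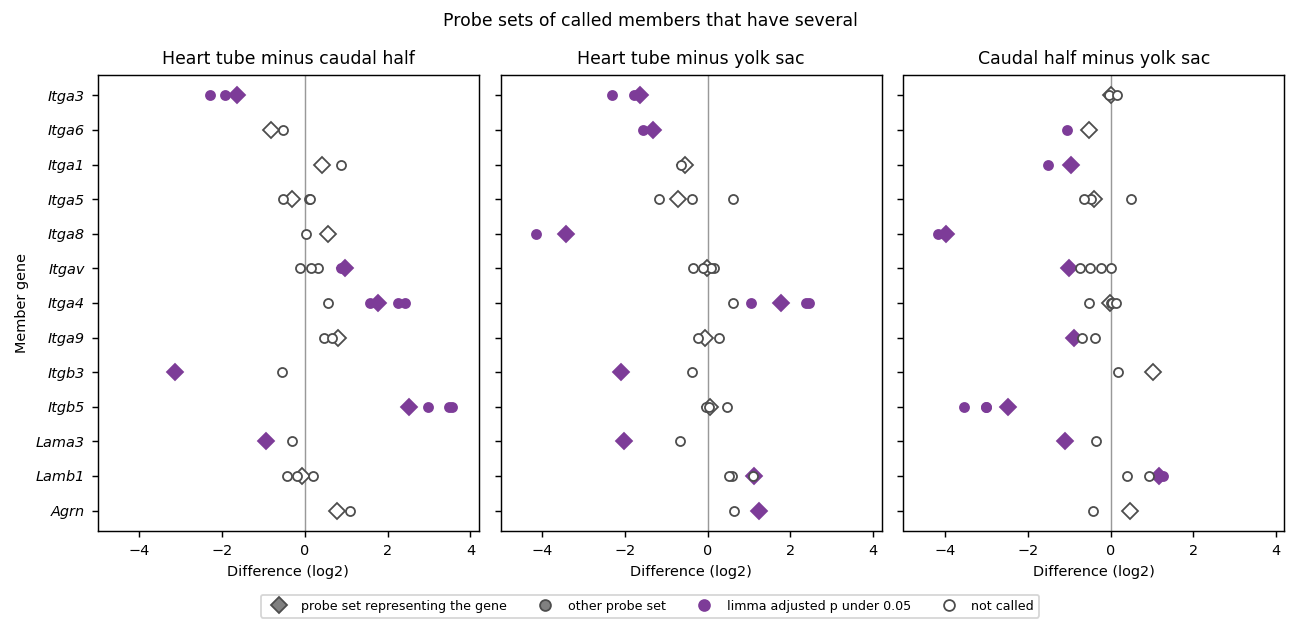
Difference between tissues (log2) of each probe set of the called genes that have several, with diamonds for the probe set that represents the gene and circles for the others, filled where the limma adjusted p, taken over all probe sets with a symbol, was under 0.05. All probe sets of Itgb5 lie at 2.52 or more in the left panel, whereas those of Itga5 lie on both sides of 0 in the middle panel.

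Other genes of the adhesion system were taken as 4 lists. Of 24 further basement membrane components, 3 were higher and 3 lower in heart tube cells than in caudal-half cells (2.86% and 2.65% of all genes), and 2 higher and 6 lower than in yolk sac cells (5.14% and 6.67%). Fbln2, the fibulin of cushion matrix, was higher in heart tube cells by 4.07 ± 0.32 and 4.33 ± 0.32 against caudal-half tissue and yolk sac, where its means of 2.85 and 2.59 were in the bacterial control range, and Frem1 by 2.31 and 2.12. Col15a1, a basement membrane collagen of vessels, was lower in heart tube cells by -3.46 ± 0.17 and -2.78 ± 0.17. The axon guidance gene Ntn1, whose product resembles laminin, was lower in heart tube cells than in caudal-half cells (-2.45), and Smoc2 was lower in heart tube cells than in yolk sac cells (-3.01). Both averaged in the bacterial control range in heart tube cells (3.34 and 2.59), so that the sizes of these differences are set against weak signals. Between caudal-half tissue and yolk sac 1 was higher, Ntn1 (1.57), and 3 were lower, Tinagl1 (-1.92), Fras1 (-1.42, with a caudal-half mean of 2.75 in the bacterial control range) and Hmcn1 (-1.06), beside 4.22% and 4.86% of all genes.

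Of 27 measured ligands of these integrins, 8 were higher and 3 lower in heart tube cells than in caudal-half cells (2.86% and 2.65% of all genes), among them Tnc, the tenascin bound by the Itga9 product (4.46 ± 0.21), Col3a1 (3.53), Thbs1 (3.46) and Cdh1, the E-cadherin gene (-3.10). Against yolk sac cells 4 were higher and 11 lower in heart tube cells (5.14% and 6.67% of all genes), including the fibrinogen genes Fgg (-4.77 ± 0.25) and Fga (-4.16), Col1a1 (-4.55) and Cdh1 (-3.70). In heart tube cells Fgg, Fga and Cdh1 averaged 3.04, 1.97 and 2.74, and in caudal-half cells Fgg and Fga averaged 3.50 and 2.04, all in the bacterial control range. Between caudal-half tissue and yolk sac 1 was higher and 12 were lower (4.22% and 4.86% of all genes), with Fgg at -4.31, Fga at -4.09, Col1a1 at -3.91 and Col1a2 at -3.52.

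The list of other laminin receptors had 18 measured genes and also took in sarcoglycan, dystrophin and tetraspanin genes and Cd44. Of these, 3 were higher in heart tube cells than in caudal-half cells (2.86% of all genes), and the other 15 were not called. The 3 were Sgcd (1.74 ± 0.20), a sarcoglycan of muscle, and the syndecan genes Sdc1 (0.92) and Sdc2 (0.91). Against yolk sac cells Sdc1 was higher (1.07) and 4 were lower (5.14% and 6.67% of all genes), among them Cd44, the hyaluronan receptor (-2.15 ± 0.22), Sgcb (-1.35) and Sdc4 (-1.34). Caudal-half cells had 4 lower than yolk sac cells, Sdc4 (-1.63), Cd44 (-1.47), Sgcd (-1.24) and Sdc2 (-1.10), beside 4.86% of all genes.

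Of 34 cytoplasmic adaptors that couple integrins to actin and signalling, 3 were higher and 1 lower in heart tube cells than in caudal-half cells: Tns1, a tensin (1.64 ± 0.22), Actn1 (1.24) and Zyx, zyxin (0.79), against Tln2, a talin (-0.98), beside 2.86% and 2.65% of all genes. Against yolk sac cells 3 were higher and 11 lower in heart tube cells (5.14% and 6.67% of all genes), the largest being Dab2 (-2.09 ± 0.16), an endocytic adaptor that is also a visceral endoderm gene, Tns3 (-1.65), Tln2 (-1.55) and Pxn, paxillin (-1.23). Between caudal-half tissue and yolk sac 1 was higher, the kinase gene Src (2.38 ± 0.46), and 6 were lower, including Tns1 (-2.14), Dab2 (-2.09) and Tns3 (-1.65), beside 4.22% and 4.86% of all genes.

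**Figure D5:**
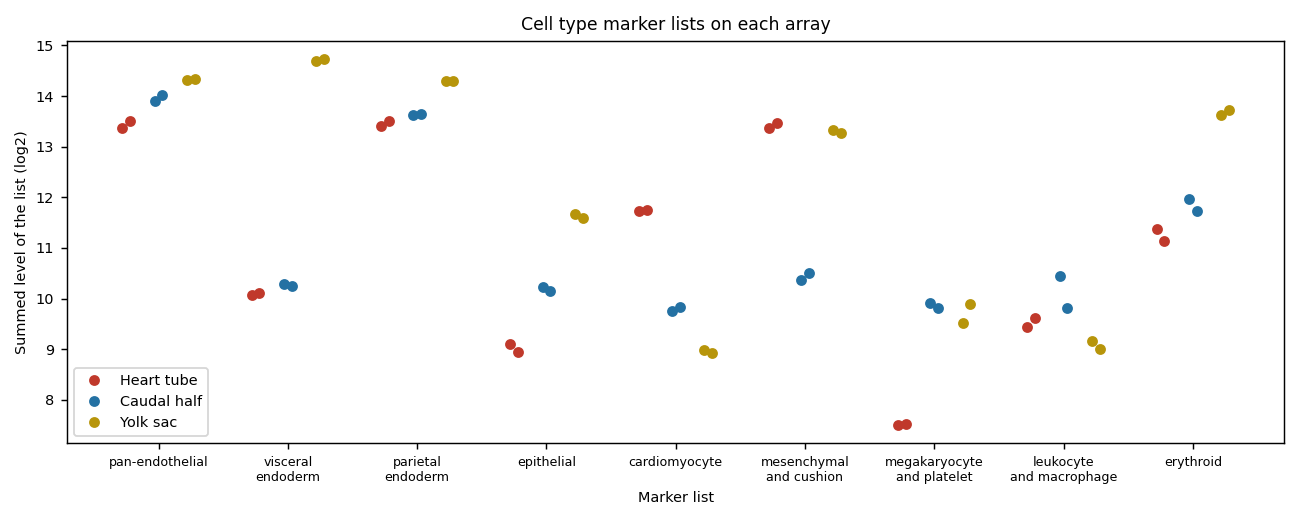
Summed level of each cell type marker list on each array (log2 of the sum over its genes), 1 point per array. Visceral endoderm markers are highest in yolk sac cells (14.69 to 14.73), cardiomyocyte markers in heart tube cells (11.72 to 11.74), and mesenchymal markers are lowest in caudal-half cells (10.36 to 10.50).

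Summed levels of the erythroid and parietal endoderm lists differed between tissues as well, although both lists were mixed gene by gene. The erythroid list of 11 genes had a summed level of 11.13 to 11.37 in heart tube cells, 11.73 to 11.96 in caudal-half cells and 13.63 to 13.73 in yolk sac cells. In heart tube cells 1 was called higher and 4 lower than in caudal-half cells (2.86% and 2.65% of all genes). Against yolk sac cells 1 was higher and 5 lower in heart tube cells (5.14% and 6.67%), and 1 higher and 5 lower in caudal-half cells (4.22% and 4.86%). Parietal endoderm markers, which include matrix genes also made by endothelium, had a summed level of 13.41 to 13.50 in heart tube cells, 13.62 to 13.64 in caudal-half cells and 14.30 in yolk sac cells. Of these 9 genes, 2 were called higher and 1 lower in heart tube than in caudal-half cells, with a median difference of 0.56, opposite in sign to that of the sum. Against yolk sac cells 3 were higher and 5 lower in heart tube cells, and 0 higher and 1 lower in caudal-half cells. The shares of all genes are those just given. The part of either list in the differences above was not tested.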

How the data were processed

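RNA of 6 samples, 2 per tissue, was hybridised to 1 array each. The deposited signals, 1 per probe set, come from RMA (affy package), as the submitters' processing notes state. RMA removes background, equalises the distributions of arrays and summarises probes, so differences are relative to the bulk of genes. The sources used here give neither versions nor filters. Values ran from 2.46 to 2172540, beyond a scanner's range, and their natural log, 0.899 to 14.6, has the usual range of RMA log2 values, so it was read as log2. The design had assumed a log scale, and its test was kept. The base is not stated.

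Of 45101 probe sets, 64 were controls and left out. Among the others 34945 carried 1 gene symbol in the platform annotation, and probe sets with several symbols (932) were not used. All 38 genes matched the RefSeq gene table by Entrez identifier, with 0 changed symbols. Per gene, the probe set with the highest mean over the 6 arrays was kept, which gave 18193 genes. The model of tissue means used limma 3.58.1 (lmFit and eBayes under R 4.3.3, two-sided contrasts) over all 6 arrays without covariates or a filter on dim genes, with 3 residual and 3.48 prior degrees of freedom. Precision is limited by 2 arrays per tissue: differences had a median standard error of 0.210. Nothing beyond the word biological says how replicates were separated, so p-values measure the spread between these samples. The fit was tested on simulated data. Summed levels of marker lists are log2 of the sum of 2 to the power of the level.

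The named genes were all members called at least once, other members in groups, up to 4 called genes per related list and comparison by size of difference, and Pecam1, Ptprc and Cdh5. Ttr, Lum, Clec1b, Pf4, Ppbp and Coro1a, of the marker lists, were named outside this rule. Genes and lists were chosen with earlier results of these data known. Of the listed genes, Spp1, Cyr61, Ctgf, Fermt1, Ptk2, Trf, Spink3, Soat2, Gp1ba and Emr1 had no probe set of their own under that symbol and were not analysed here. Alternatives were leaving out each array, the replicate number as a block, other choices of probe set, a filter on dim genes, other variance models, centring and scale.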

Additional observations from a re-analysis of the deposited data

How the results depend on the processing

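No called difference changed direction under any setting. Leaving out single arrays kept 107 of 192 calls and the other settings 235 of 256, and 10 of the 32 called differences were called throughout. Without single arrays the members called for heart tube minus caudal-half tissue numbered 1 to 3 higher and 2 to 4 lower (5 and 5 with all arrays), for heart tube minus yolk sac 0 to 4 higher and 5 to 8 lower (4 and 9), and for caudal-half tissue minus yolk sac 0 to 2 higher and 3 to 7 lower (1 and 8), with fewer residual degrees of freedom and, where its own array was lost, a lone sample assumed to vary like the others. With the replicate number as a block, 3 members were higher for heart tube minus caudal-half tissue. Same-numbered arrays deviated together by r = 0.0468, -0.00681 and 0.0189, so they shared hardly any shift over all genes. These values cannot tell whether same-numbered samples came from the same embryos or were sorted together. With the probe set of highest variance 3 were higher and 3 lower in that comparison, and averaging the probe sets of a gene left 3 lower. For caudal-half tissue minus yolk sac, 2 were higher with averaged probe sets and 2 without dim genes (Lama1 joining Lamb1 in both). The causes were not tested, except that without dim genes fewer genes were adjusted for. The intensity trend, the robust prior, median centring and the linear reading of the scale kept these 6 counts within 1.5 times, although the intensity trend called 1229 of all genes higher for caudal-half tissue minus yolk sac, against 767. Over all genes, leaving out single arrays gave 208 to 493 higher and 168 to 406 lower calls for heart tube minus caudal-half tissue (520 and 482 with all arrays), 387 to 764 and 549 to 1030 for heart tube minus yolk sac (936 and 1214), and 222 to 475 and 416 to 680 for caudal-half tissue minus yolk sac (767 and 885). Signal over background limits Itgb2, whose calls rest on 1 array above the bacterial controls.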

Other observations

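The following values were chosen after they were seen. Itgae, an alpha chain of lymphocytes in epithelia, read 2.72 and 2.34 in heart tube cells, 2.40 and 6.20 in caudal-half cells, and 2.68 and 2.53 in yolk sac cells, so that a single caudal array was raised. Its other probe set read 2.35 on that array and 2.40 on the other caudal array, and Itgae was called in no comparison with all arrays. Without the other caudal array, with that array as the lone caudal sample, it was called for heart tube minus caudal-half tissue and for caudal-half tissue minus yolk sac.

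Of the 6 probe sets of Itgb1, 5 were not called for heart tube minus yolk sac, with differences of -0.20 to 1.14, whereas a dimmer one was called at 1.59 ± 0.36 (limma adjusted p = 0.0442 over probe sets with a symbol). That probe set read 5.89 and 6.12 in heart tube cells, 5.37 and 5.49 in caudal-half cells, and 4.98 and 3.85 in yolk sac cells.

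Npnt, encoding nephronectin, the ligand of the Itga8 product, was listed among the basement membrane components and was not called. It read 5.66 and 6.23 in heart tube cells, 7.34 and 7.73 in caudal-half cells, and 5.35 and 8.17 in yolk sac cells, where the 2 arrays were far apart. Vcam1, a ligand of the Itga4 product, was called in all 3 comparisons, at 4.49 and 4.67 in heart tube cells, 3.72 and 3.46 in caudal-half cells, and 5.84 and 5.63 in yolk sac cells. Fn1, encoding fibronectin, was called in all 3 as well, at 12.43 and 12.35 in heart tube cells, 10.78 and 10.80 in caudal-half cells, and 11.63 and 11.61 in yolk sac cells.

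The collagen IV genes Col4a1 and Col4a2 were lower in heart tube cells than in yolk sac cells, by -0.77 ± 0.16 (limma adjusted p = 0.0273) and -0.89 ± 0.17 (0.0203), and so was Sparc, by -0.93 ± 0.16 (0.0139). Their probe sets did not pass between heart tube and caudal-half tissue, where the differences were -0.11, -0.33 and -0.38.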
